A study of Mus musculus with 21 samples.

Results

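Adenomas of the ileum were compared with normal ileum of wild-type B6 mice by methylated DNA immunoprecipitation and sequencing (MeDIP-seq), which pulls down DNA fragments with an antibody against 5-methylcytidine and counts them along the genome. The comparison used 8 of the 21 samples of the series. These were 5 adenomas (Ad4, Ad4-1, Ad5, Ad6 and Ad7) of Apc-Min/+ mice and the intestine of 3 Apc+/+ littermates (B1, B2 and B3, here called B6). All mice were male, of the strain C57BL/6J and 15 to 19 weeks old, and no treatment is named for them. Each adenoma was excised singly, and the 5 adenomas came from 4 mice, since Ad4 and Ad4-1 grew in the same animal. The members are all 13980 regions of the genome that had been listed as differentially methylated, of which 5135 were listed as hypermethylated and 8845 as hypomethylated in adenoma. The list had been made from a rank test of the same 5 adenomas against 6 normal samples, the 3 B6 samples among them, so that the differences given here describe the regions and no p-value is given for a single region. A region listed as hypermethylated is called a gain and one listed as hypomethylated a loss. The normal intestine of Apc-Min/+ mice was not used.

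Cytosine methylation in mammals lies mostly at CpG dinucleotides and is copied to the new strand by DNA methyltransferases at each cell division. CpG-rich promoters are usually free of it, and long stretches of other sequence carry it. Apc-Min is a truncating mutation of Apc, a member of the complex that marks beta-catenin for degradation, and adenomas form in the small intestine of heterozygous mice once the other copy is lost. Wnt signals through beta-catenin keep the crypt stem cells of the normal gut dividing, while BMP and TGF-beta signals restrain them.

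The values are fragment coverage in depth-scaled reads (rpm, relative to all uniquely aligned reads of the library), averaged over windows of 500 bp. A MeDIP signal depends on the number of CpG sites in the window as well as on the share that is methylated, so that levels are compared between samples at the same region and not between regions. In whole tissue a change in the share of cells of a type cannot be told apart from a change of methylation within the cells. RNA levels were not analysed here, and the listed tissue could therefore not be checked against expressed markers. The 8 MeDIP libraries had 13878615 to 21387735 uniquely aligned reads. At 0.5 rpm a window of 500 bp then held 11.6 to 17.8 fragments, a counting error of 23.7% to 29.4% in a single sample.

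The sequences below are from regions with large differences. Apart from *Gata4* and *Pmepa1*, which were added after their values had been seen, they are the largest by ratio in each direction among regions that met the criteria given below, touched a protein-coding gene and averaged at least 0.5 rpm in the group with more signal. Each is a stretch of 200 bp of the mouse genome (mm9, plus strand, 5′ to 3′) that holds the most CpG sites of its region outside annotated UTRs, with every CpG in capitals. The first 4 lie in regions with more signal in adenoma. They are *Ano1* (chr7:151924475-151924674, not coding, 14 CpG sites), *Onecut3* (chr10:79965665-79965864, intron, 14 CpG sites), *Plcd3* (chr11:102941504-102941703, coding, 21 CpG sites) and *Ush1g* (chr11:115180049-115180248, coding, 24 CpG sites). The next is the stretch of *Gata4* (chr14:63859505-63859704, coding, 26 CpG sites), a region in which 1 adenoma stood apart. The next 4 lie in regions with less signal in adenoma, which are *Synj2* (chr17:5975361-5975560, not coding, 5 CpG sites), *Pla2g10* (chr16:13731077-13731276, not coding, 8 CpG sites), *Sdc1* (chr12:8782026-8782225, intron, 8 CpG sites) and *Vmp1* (chr11:86404015-86404214, intron, 8 CpG sites). The last is from an intron of *Pmepa1* (chr2:173079374-173079573, 13 CpG sites), the gene with the most hypomethylated regions among gene models of up to 2400 kb.
Ano1: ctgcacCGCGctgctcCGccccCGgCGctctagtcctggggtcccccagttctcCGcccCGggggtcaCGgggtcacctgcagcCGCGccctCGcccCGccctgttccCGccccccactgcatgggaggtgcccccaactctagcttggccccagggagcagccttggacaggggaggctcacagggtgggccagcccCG
Onecut3: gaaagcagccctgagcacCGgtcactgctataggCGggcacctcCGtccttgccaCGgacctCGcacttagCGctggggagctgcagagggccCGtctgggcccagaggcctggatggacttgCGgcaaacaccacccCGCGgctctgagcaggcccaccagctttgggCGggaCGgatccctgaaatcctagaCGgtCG
Plcd3: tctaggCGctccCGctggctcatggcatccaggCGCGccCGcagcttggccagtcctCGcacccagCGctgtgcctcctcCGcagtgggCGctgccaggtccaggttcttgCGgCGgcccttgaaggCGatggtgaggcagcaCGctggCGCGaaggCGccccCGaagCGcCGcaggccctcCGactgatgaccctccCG
Ush1g: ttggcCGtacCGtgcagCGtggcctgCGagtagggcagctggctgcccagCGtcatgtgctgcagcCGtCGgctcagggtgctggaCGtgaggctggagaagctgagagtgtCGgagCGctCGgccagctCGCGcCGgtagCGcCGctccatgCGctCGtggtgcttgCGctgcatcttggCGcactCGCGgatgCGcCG
Gata4: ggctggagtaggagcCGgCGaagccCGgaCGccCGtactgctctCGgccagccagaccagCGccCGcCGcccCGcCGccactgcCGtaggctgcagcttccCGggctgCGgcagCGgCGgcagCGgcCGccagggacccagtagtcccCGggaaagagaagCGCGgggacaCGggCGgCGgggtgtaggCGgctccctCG
Synj2: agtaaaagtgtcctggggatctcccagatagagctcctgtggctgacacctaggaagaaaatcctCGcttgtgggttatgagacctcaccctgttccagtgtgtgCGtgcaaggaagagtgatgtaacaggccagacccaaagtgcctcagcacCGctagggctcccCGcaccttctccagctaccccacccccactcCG
Pla2g10: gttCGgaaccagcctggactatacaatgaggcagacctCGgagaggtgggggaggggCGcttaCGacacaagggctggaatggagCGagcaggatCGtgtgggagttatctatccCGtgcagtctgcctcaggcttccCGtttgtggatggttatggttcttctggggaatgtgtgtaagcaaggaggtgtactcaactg
Sdc1: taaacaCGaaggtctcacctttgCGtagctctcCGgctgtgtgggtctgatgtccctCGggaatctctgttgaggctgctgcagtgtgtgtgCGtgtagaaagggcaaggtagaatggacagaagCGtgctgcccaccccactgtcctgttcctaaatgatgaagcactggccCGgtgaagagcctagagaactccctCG
Vmp1: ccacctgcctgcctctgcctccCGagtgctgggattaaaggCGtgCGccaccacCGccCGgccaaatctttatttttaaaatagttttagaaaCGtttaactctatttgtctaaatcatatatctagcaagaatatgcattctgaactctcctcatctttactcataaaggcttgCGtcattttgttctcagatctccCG
Pmepa1: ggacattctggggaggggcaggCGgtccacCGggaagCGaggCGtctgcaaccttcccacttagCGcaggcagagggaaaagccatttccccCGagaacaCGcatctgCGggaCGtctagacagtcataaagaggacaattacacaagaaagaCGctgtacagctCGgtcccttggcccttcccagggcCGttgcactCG

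The hypermethylated stretches were the denser ones in CpG, with 14 to 26 sites against 5 to 13 in the hypomethylated stretches. Over the whole list this held only at the upper end. Regions with over 5 CpG per 100 bp made up 156 of the hypermethylated list (3.04%) and 14 of the hypomethylated list (0.158%), while the median density was 1.4 and 1.6 CpG per 100 bp. Hypermethylated regions also lay more often in exons (18.9% against 11.3%) and in promoters, taken as 1000 bp upstream to 500 bp downstream of a 5′ end (3.45% against 1.84%). Introns held 37.7% of the hypermethylated and 41.8% of the hypomethylated regions, and 37.4% and 41.7% were intergenic.

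In a typical region the difference was below a factor of 2. The size is given as the log2 ratio of the mean adenoma signal over the mean B6 signal, with 0.05 rpm added to both means. Its median was 0.55 over the hypermethylated regions and -0.64 over the hypomethylated regions, which are ratios of 1.46 and 0.640. Its interquartile range was 0.44 to 0.69 in the hypermethylated list and -0.81 to -0.51 in the hypomethylated list. A log2 ratio past 1 was found in 177 hypermethylated regions (3.45%) and in 844 hypomethylated regions (9.54%). With each sample scaled to the same sum over all listed regions, these counts were 613 (11.9%) and 279 (3.15%). Most listed regions are losses, so this scaling enlarges gains and shrinks losses by construction, and the reversed order is no separate finding. Gains past 1 were more frequent where CpG sites were dense, and losses past 1 were least frequent where CpG sites were sparse. Of the 156 hypermethylated regions with over 5 CpG per 100 bp, 31 (19.9%) were past a log2 ratio of 1. The share was lowest with 1 to 2 CpG per 100 bp, at 49 of 2506 (1.96%), and was 3.44% with up to 1. After scaling, the shares with over 5 and with 1 to 2 were 32.1% and 9.34%. Among hypomethylated regions the share was 4.48% with up to 1 CpG per 100 bp, 10.2% (507 of 4977) with 1 to 2 and 12.8% (216 of 1688) with 2 to 3. It was 11.9% with 3 to 5 and 28.6% with over 5, where there were only 14 regions. After scaling, 14.3% of the hypomethylated regions with over 5 and 3.30% of those with 1 to 2 were past a log2 ratio of 1. In promoters, 21 of 177 hypermethylated (11.9%) and 18 of 163 hypomethylated regions were past it.

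The mean signal of each sample over the list kept the groups apart. Over the 5135 hypermethylated regions it was 0.299 to 0.325 rpm in the B6 samples and 0.471 to 0.498 rpm in the adenomas. Over the 8845 hypomethylated regions it was 0.467 to 0.495 rpm in B6 and 0.271 to 0.301 rpm in adenoma. In both lists the range within each group was smaller than the gap between the groups. That the groups lie apart follows from how the regions were listed and is no separate finding.

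The median change over each list was of like size in every adenoma. Each was compared with the mean of the B6 samples, and the median log2 ratio over the hypermethylated regions was 0.51 in Ad4, 0.53 in Ad4-1, 0.54 in Ad5, 0.51 in Ad6 and 0.57 in Ad7. Over the hypomethylated regions the same value was -0.61, -0.70, -0.67, -0.58 and -0.65. A single adenoma passed a ratio of 4/3 at 72.8% to 79.4% of the hypermethylated regions and 3/4 at 77.6% to 85.1% of the hypomethylated regions. All 5 adenomas passed it together at 1847 of 5135 hypermethylated regions and at 3984 of 8845 hypomethylated regions. The next largest class was a change in 4 of 5 adenomas, with 1480 and 2711 regions. A change in only 1 adenoma was seen at 281 and 141 regions. The listing by group used these 5 adenomas, so it favours shared changes and disfavours a change in only 1, and the sharing is no separate finding.

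**Figure D1:**
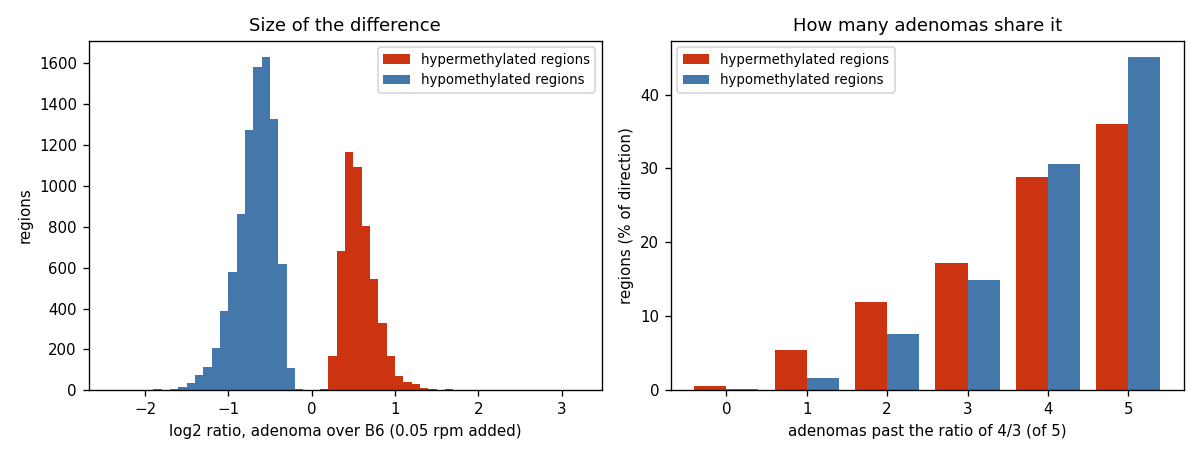
The left panel counts regions by log2 ratio of adenoma over B6 (x axis, bins of 0.1) for the hypermethylated (red) and hypomethylated (blue) lists, which have medians of 0.55 and -0.64. The right panel gives the percent of each list (y axis) by the number of adenomas, of 5, that pass a ratio of 4/3 or 3/4 to the B6 mean, and the largest class in both lists is all 5 adenomas (1847 and 3984 regions).

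With 3 against 5 samples an exact two-sided rank test cannot give a p below 0.0357, so the listing criterion of 0.01 cannot be applied to these 8 samples. Instead the regions were counted in which every adenoma lay on 1 side of every B6 sample. There were 3548 such hypermethylated regions (69.1%) and 6655 such hypomethylated regions (75.2%). With a ratio past 4/3 or 3/4 and a mean above 0.25 rpm in 1 group as further conditions, 3277 hypermethylated regions (63.8%) and 6289 hypomethylated regions (71.1%) met all criteria. A moderated linear model (limma) on the log2 values describes these regions and is no separate test of them, since they had been listed with the same samples. It gave an adjusted p under 0.05 at 4576 hypermethylated (89.1%) and 8107 hypomethylated regions (91.7%). Its unadjusted p was under 0.05 at 4647 and 8203 regions, so the adjustment within the list removed few. These shares are the background against which the counts for groups of genes are given below, and "meeting the criteria" refers to the second count. When each sample was scaled to the same sum over all listed regions, the median log2 ratio of all regions shifted by 0.19, and the regions meeting the criteria became 4979 hypermethylated and 2517 hypomethylated. The medians then were 0.74 and -0.45 and the limma calls 5131 and 4300. Most listed regions are losses, and the sums over the list were lower in adenoma (4861 to 5083 rpm) than in B6 (5763 to 6006 rpm). Scaling to the same sum therefore enlarges gains and shrinks losses by construction. It cannot show whether the balance between gains and losses depends on the scaling. The log2 ratio of every region named below was larger in size than the shift of 0.19.

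The sample titles carry a MeDIP number whose meaning is not stated. It is 4 for B1, B2, Ad4 and Ad4-1, 10 for B3 and Ad6, 9 for Ad5 and 2 for Ad7. Among the 4 samples with number 4, the median log2 ratio was 0.54 and -0.64, and 90.8% of hypermethylated and 93.2% of hypomethylated regions had both adenomas apart from both B6 samples in the listed direction. Between Ad6 and B3, which share number 10, the medians were 0.49 and -0.61, and 149 hypermethylated and 164 hypomethylated regions went the other way. Numbers 9 and 2 each held only 1 adenoma and no B6 sample. The regions had been listed with all these samples, so the separation within a number is no separate finding. Input DNA, which was not immunoprecipitated, was sequenced for 1 sample of each group. Its mean in Ad7 over that in B3 was 0.761 at the hypermethylated and 0.840 at the hypomethylated regions, while the MeDIP ratio of the same samples was 1.57 and 0.574.

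Below, values in B6 are given in the order B1, B2 and B3, and values in adenoma in the order Ad4, Ad4-1, Ad5, Ad6 and Ad7. The regions described first are the 10 with the largest ratio in each direction among those that met the criteria, touched a protein-coding gene and averaged at least 0.5 rpm in the group with more signal, so regions of lower signal, such as those at *Slc9a3* and *Efna3*, are described with their lists. The largest gain was in an exon of *Ano1*, a calcium-activated chloride channel (chr7:151924001-151924750, 44 CpG sites). B6 intestine had nearly no signal, with 0.06, 0.02 and 0.03 rpm, and the adenomas had 0.23, 0.64, 0.48, 0.74 and 0.63 rpm. All adenomas lay above the B6 samples, Ad4 the least far, and the log2 ratio was 2.78 (group means 0.0367 ± 0.0208 and 0.544 ± 0.199 rpm, SD). At *Onecut3*, a cut homeobox transcription factor (chr10:79965251-79966250, intron), B6 had 0.05, 0.07 and 0.06 rpm and adenoma 0.38, 0.72, 0.64, 0.37 and 0.43 rpm, a log2 ratio of 2.34. The B6 samples were nearly equal here, and the spread was among the adenomas.

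*Plcd3*, a phospholipase C that cleaves membrane phosphoinositides, was higher in adenoma in a coding exon (chr11:102941251-102942250). Its values were 0.15, 0.08 and 0.07 rpm in B6 and 0.45, 0.53, 0.89, 0.55 and 0.84 rpm in adenoma, a log2 ratio of 2.23. The region of 1500 bp in the coding part of *Ush1g*, a scaffold protein of sensory hair cells, also touches *Otop2*, a proton channel (chr11:115179251-115180750, 80 CpG sites). It had 0.28, 0.31 and 0.34 rpm in B6 and 1.32, 1.46, 1.68, 1.99 and 1.18 rpm in adenoma, a log2 ratio of 2.13. *Zfp503*, a zinc finger repressor of transcription, had 0.43, 0.42 and 0.16 rpm in B6 and 1.02, 0.96, 1.60, 1.64 and 0.79 rpm in adenoma in its coding exon, a log2 ratio of 1.70. The adenomas fell into a higher pair, Ad5 and Ad6, and 3 lower samples.

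The remaining 5 of the 10 gains named by this rule lay at *Rfx4*, a winged-helix transcription factor (log2 ratio 1.43), the promoter of the glucose transporter gene *Slc2a12* (1.34), *Mn1*, a transcriptional coactivator (1.32), *Vdr*, the vitamin D receptor (1.28), and *Lrrfip2*, a protein that binds Dishevelled (1.27). In *Mn1* the high level in adenoma, 1.66, 1.75, 1.64, 1.33 and 1.58 rpm, was nearly even over the 5 tumours, against 0.42, 0.72 and 0.68 rpm in B6. *Vdr* held 4 hypermethylated regions, all of which met the criteria, and 1 hypomethylated region. Summed over the 4 regions the signal was 1.32, 0.91 and 0.94 rpm in B6 and 2.04, 2.45, 2.19, 2.72 and 2.19 rpm in adenoma.

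The largest ratio in the whole list was at *Gata4*, which encodes a transcription factor of the proximal small intestine, and it did not meet the criteria. Its coding exon (chr14:63859501-63860750, 81 CpG sites) had 0.09, 0.60 and 0.03 rpm in B6 and 2.80, 2.40, 2.79, 0.21 and 2.79 rpm in adenoma, a log2 ratio of 2.95. Ad6 lay below B2, and the other 4 adenomas were between 2.40 and 2.80 rpm. Without B2 the log2 ratio was 4.35, and this was the only named region whose ratio moved by more than 1.5 times when 1 sample was left out. The adjoining region (chr14:63859001-63859500) also had Ad6 below B2, with 0.06, 0.14 and 0.07 rpm in B6 and 0.72, 0.85, 0.84, 0.10 and 1.20 rpm in adenoma. Both are regions in which 4 adenomas were high and Ad6 was as low as normal intestine.

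**Figure D2:**
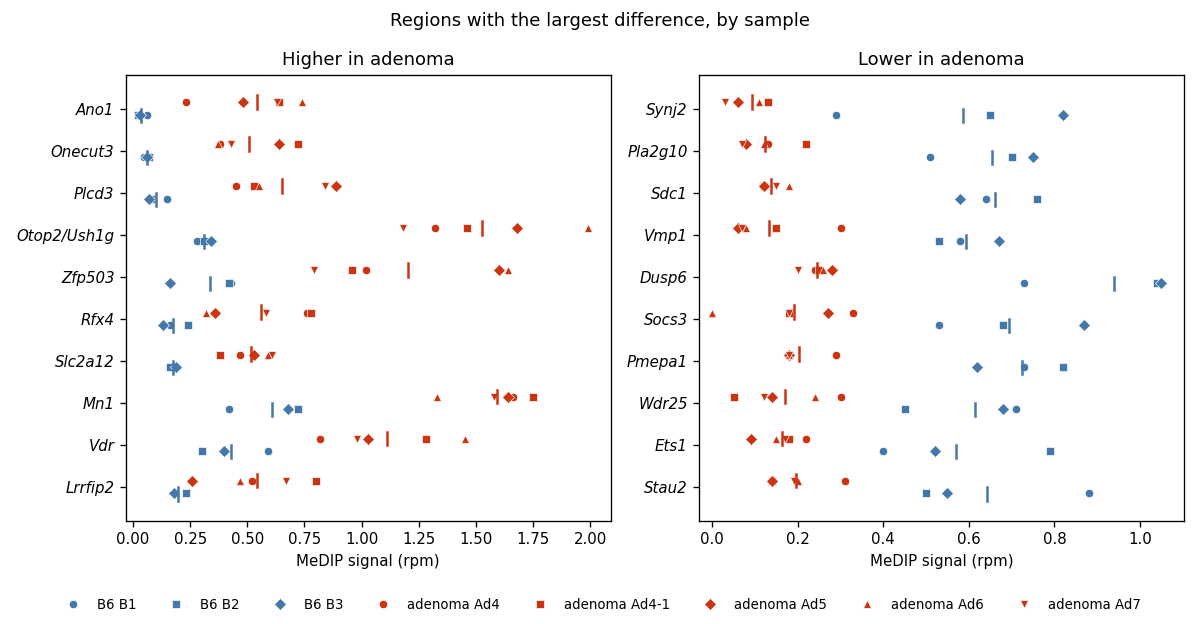
MeDIP signal in rpm (x axis) for the 10 regions with the largest log2 ratio in each direction among those that met the criteria, had at least 0.5 rpm in the higher group and were assigned to a protein-coding gene. Each point is a sample, blue for the 3 B6 samples and red for the 5 adenomas with a marker shape per sample, and the vertical bars are group means. By the rule no adenoma overlaps a B6 sample, and at *Socs3* Ad6 is at 0.00 rpm.

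The largest loss was in a non-coding exon of *Synj2*, a phosphoinositide phosphatase (chr17:5975251-5975750). B6 had 0.29, 0.65 and 0.82 rpm and adenoma 0.13, 0.13, 0.06, 0.11 and 0.03 rpm, a log2 ratio of -2.16. The B6 samples spread widely, and B1 was nearest to the adenomas. At the promoter of *Pla2g10*, a secreted phospholipase A2 (chr16:13730751-13731500), B6 had 0.51, 0.70 and 0.75 rpm and adenoma 0.13, 0.22, 0.08, 0.12 and 0.07 rpm, a log2 ratio of -2.02. In an intron of *Sdc1*, which encodes the epithelial heparan sulphate proteoglycan syndecan-1 (chr12:8781751-8782750), the values were 0.64, 0.76 and 0.58 rpm in B6 and 0.12, 0.12, 0.12, 0.18 and 0.15 rpm in adenoma, a log2 ratio of -1.92. These adenomas were the most alike of the 3 regions, with an SD of 0.0268 rpm.

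*Vmp1*, a membrane protein of autophagy, had 0.58, 0.53 and 0.67 rpm in B6 and 0.30, 0.15, 0.06, 0.08 and 0.07 rpm in adenoma (log2 ratio -1.82), with Ad4 the highest tumour. *Dusp6*, the phosphatase that switches off ERK kinases, had 0.73, 1.04 and 1.05 rpm in B6 over a coding exon and 0.24, 0.25, 0.28, 0.26 and 0.20 rpm in adenoma, a log2 ratio of -1.74. The 5 adenomas were nearly equal, with an SD of 0.0297 rpm. *Socs3*, the feedback inhibitor of cytokine receptors, had 0.53, 0.68 and 0.87 rpm in B6 and 0.33, 0.18, 0.27, 0.00 and 0.18 rpm in adenoma, a log2 ratio of -1.62 at 7.6 CpG per 100 bp. Input DNA at *Socs3* was 0.81 rpm in B3 and 0.25 rpm in Ad7, and its part in the difference was not tested. These input libraries were shallow, with 3228908 and 5931425 uniquely aligned reads. Their values differed at other named regions too, in the same direction at *Synj2* (0.50 and 0.22 rpm) and in the other at *Pla2g10* (0.02 and 0.31 rpm). The 10 losses named by the rule ended with *Pmepa1* (-1.62), *Wdr25*, a WD-repeat protein (-1.59), the transcription factor *Ets1* (-1.55) and *Stau2*, a carrier of RNA (-1.49).

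TGF-beta and BMP genes held far more losses than gains. TGF-beta ligands bind receptor kinases that phosphorylate Smad proteins, which enter the nucleus, and inhibitory Smads and *Pmepa1* dampen the signal. Of 44 genes on this list, 14 had a hypomethylated region and 6 a hypermethylated region, beside 3188 and 2483 of all 22380 annotated protein-coding genes. Of the 65 regions at the genes of the list, 59 were lower and 6 higher in adenoma, or 9.23% higher against 36.7% of all listed regions. The criteria were met by 49 of the 59 and by 3 of the 6, and the median log2 ratio of the hypomethylated regions was -0.75, against -0.64 over the whole list. The sum over the 59 regions was 31.82 to 35.16 rpm in B6 and 16.16 to 19.24 rpm in adenoma.

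*Pmepa1*, which encodes a TGF-beta-induced inhibitor of Smad activation, held 17 of the 59. All 17 lay within its 52.1 kb, 15 in introns and 2 in exons, 14 met the criteria, and the gene had no hypermethylated region. Summed over the 17 regions the signal was 9.56, 10.49 and 11.54 rpm in B6 and 5.19, 3.98, 5.10, 5.04 and 5.29 rpm in adenoma. No adenoma came near the B6 samples, and Ad4-1 was the lowest. The log2 ratio of the single regions ran from -1.62 to -0.53. At the region with the largest change (chr2:173079001-173080250) B6 had 0.73, 0.82 and 0.62 rpm and adenoma 0.29, 0.18, 0.18, 0.18 and 0.18 rpm. At the region 13.5 kb from the 5′ end, B6 had 1.21, 1.27 and 1.85 rpm and adenoma 0.56, 0.66, 0.33, 0.40 and 0.56 rpm.

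**Figure D3:**
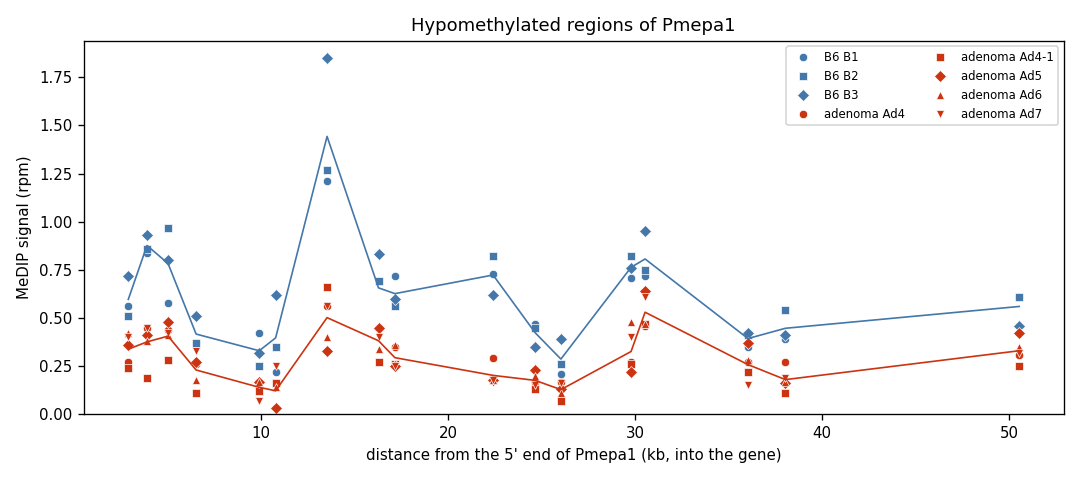
MeDIP signal in rpm (y axis) at the 17 hypomethylated regions of *Pmepa1* by distance from the 5′ end of the gene in kb (x axis). Points are samples, blue for B6 and red for adenoma, and the lines join the group means, with the B6 line (0.29 to 1.44 rpm) above the adenoma line (0.12 to 0.53 rpm) at each region.

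*Smad3*, the signal carrier of TGF-beta and activin, held 9 hypomethylated regions in introns, of which 8 met the criteria, and 1 hypermethylated region. The 9 regions summed to 5.78, 5.21 and 6.64 rpm in B6 and to 3.42, 2.85, 2.83, 3.50 and 3.25 rpm in adenoma. The hypermethylated intron region (chr9:63510501-63511000) went the other way, with 0.22, 0.15 and 0.10 rpm in B6 and 0.38, 0.31, 0.29, 0.35 and 0.39 rpm in adenoma. *Smad7*, an inhibitory Smad, had 6 hypomethylated regions that summed to 3.89, 4.22 and 4.01 rpm in B6 and to 2.34, 2.28, 2.44, 2.22 and 1.97 rpm in adenoma. The BMP receptor kinase gene *Acvr1* also had 6, and the ligand genes *Tgfb2* and *Bmp6* had 5 and 3. The receptor genes *Tgfbr3* and *Tgfbr2* had 3 and 2. The other hypermethylated regions lay at *Smad1*, *Smad5* and *Smad6* and at the receptor genes *Acvr1* and *Bmpr1b*, and *Smad1* also had 2 hypomethylated regions.

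Long introns gather regions, so the number of regions is given with the length of the gene. *Zfpm1*, which encodes a cofactor of GATA factors, had 11 losses in 55.1 kb, all in introns. They summed to 6.12, 5.91 and 5.39 rpm in B6 and to 3.26, 3.26, 2.77, 3.93 and 3.50 rpm in adenoma. *Wwox*, an oxidoreductase gene at a fragile site, held 12 hypomethylated regions in 913 kb and *Msi2*, which encodes an RNA-binding protein of stem cells, 11 in 427 kb. On the side of the gains, *Pcdhgc5* in the protocadherin gamma cluster had 7 regions, *Celf4*, a splicing factor, and *Frmd4a*, a scaffold protein of epithelial polarity, 6 each, and *Scarb1*, a lipoprotein receptor of the enterocyte, 5 in 64.0 kb. In *Celf4* all 6 met the criteria and summed to 1.38, 1.32 and 1.39 rpm in B6 and to 2.57, 2.20, 2.53, 2.67 and 2.49 rpm in adenoma. In all, 2483 of 22380 annotated protein-coding genes held a hypermethylated region, 3188 a hypomethylated region and 876 both.

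Of 24 regions at genes that carry or answer the Wnt signal, 18 were lower and 6 higher in adenoma, where 63.3% of all listed regions were lower, and the criteria were met by 16 of the 18 and by 0 of the 6. The losses summed to 7.67 to 8.20 rpm in B6 and to 3.86 to 4.62 rpm in adenoma. They lay at *Cd44*, a surface receptor of crypt cells, the ephrin receptors *Ephb2* and *Ephb3* that position crypt cells, the nuclear partners of beta-catenin *Lef1*, *Tcf7l1* and *Tcf7l2*, *Pygo1* and the stem cell receptor *Tnfrsf19*. At the first *Cd44* intron region (chr2:102702751-102703250) B6 had 0.36, 0.29 and 0.38 rpm and adenoma 0.12, 0.11, 0.04, 0.12 and 0.23 rpm, a log2 ratio of -1.18. *Ephb2* held 5 losses, all meeting the criteria, that summed to 2.01, 2.18 and 2.20 rpm in B6 and to 1.22, 0.98, 0.88, 0.98 and 1.13 rpm in adenoma, and 2 gains that did not meet them.

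At Wnt inhibitors 15 of 18 regions were lower in adenoma, beside 63.3% of all listed regions, and 6 of the 15 lay in 1 gene. This was *Nkd1*, a feedback inhibitor that binds Dishevelled, and all 6 met the criteria, with sums of 2.88, 2.86 and 3.31 rpm in B6 and 2.12, 1.55, 1.86, 1.91 and 2.13 rpm in adenoma. *Apc* itself, the mutated gene, had 2 hypomethylated intron regions (log2 ratio -0.69 and -0.58) and 1 hypermethylated exon region (0.47), all of which met the criteria. At *Gsk3b*, the kinase that phosphorylates beta-catenin, an intron region was lower (-0.80) and an exon region higher (0.52). Wnt ligands and receptors had 10 gains and 17 losses (37.0% higher), a split close to that of all regions, with 14 of the losses and 5 of the gains meeting the criteria. The largest losses that met the criteria were at the coreceptors *Lrp6* (-1.07), with 0.47, 0.37 and 0.46 rpm in B6 and 0.19, 0.05, 0.27, 0.25 and 0.14 rpm in adenoma, and *Lrp5* (-1.02).

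**Figure D4:**
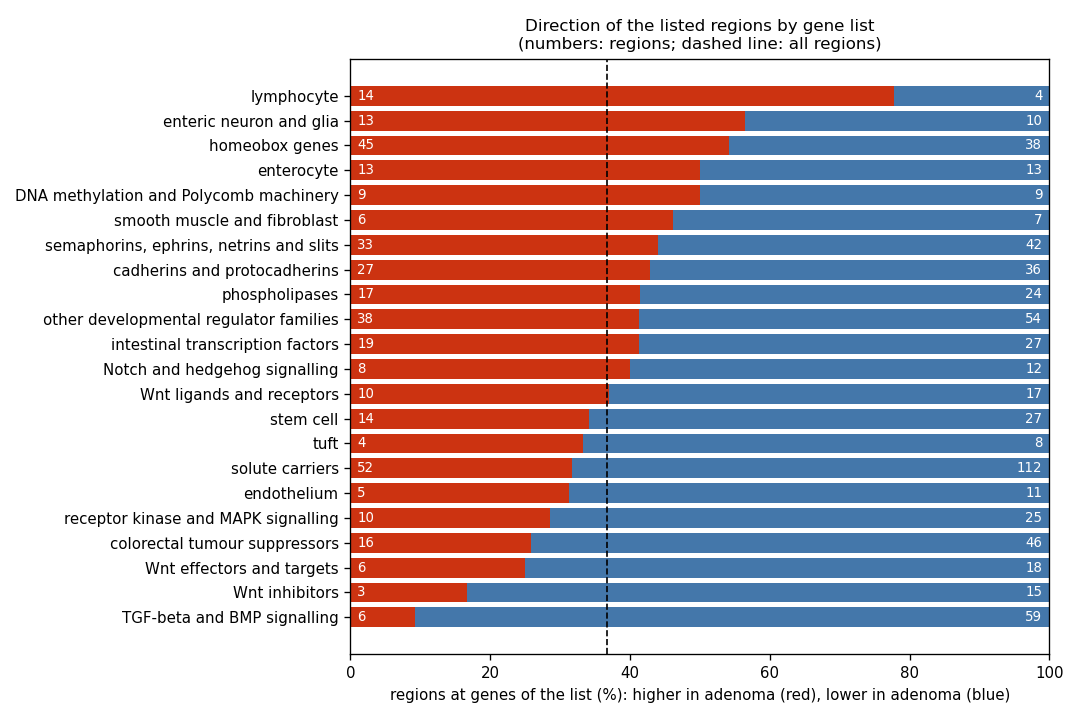
For each gene list with at least 10 listed regions, the share of its regions that was higher (red) or lower (blue) in adenoma, in percent (x axis), with the number of regions at each end and a dashed line at the share of all regions (36.7% higher). TGF-beta and BMP genes are at the lower end (6 higher, 59 lower) and lymphocyte genes at the upper end (14 higher, 4 lower).

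Receptor kinase and MAPK genes had 25 losses and 10 gains (28.6% higher), and 17 of the losses and 5 of the gains met the criteria. Beside *Dusp6* the losses included *Eps8*, a substrate of the EGF receptor (-1.11), the transcription factor *Fos* (-0.96), the feedback inhibitor *Spry1* (-0.92) and the EGF receptor ligand *Ereg* (-0.89). *Fos* had 1.89, 1.92 and 1.97 rpm in B6 and 0.81, 0.63, 1.14, 1.05 and 1.20 rpm in adenoma over its coding exon. The B6 samples were nearly equal there, with an SD of 0.0404 rpm. The largest gain of the list was in an intron of *Dusp16*, a phosphatase of stress kinases (0.98). With *Fgfr2* included, whose annotated model spans 3009 kb, the list had 43 losses and 20 gains.

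Phospholipase genes had 24 losses and 17 gains (41.5% higher). Secreted phospholipases A2 release fatty acids from membrane lipids. Beside *Pla2g10*, losses at their genes included *Pla2g5* (-1.45), with 0.89, 1.24 and 1.31 rpm in B6 and 0.41, 0.49, 0.36, 0.39 and 0.29 rpm in adenoma, *Pla2g2f* (-1.16) and the promoter of *Pla2g2c* (-0.94). The *Pla2g5* region also overlaps the 5′ end of *Pla2g2a*, which gencode vM1 annotates as a processed transcript and which is therefore not among the protein-coding genes counted here. Gains were largest at the phospholipase C genes *Plcd3* (2.23) and *Plcb4* (0.91), the second of which also had a loss of -1.04.

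Transcription factors of the gut epithelium were found on both sides, with 19 gains and 27 losses (41.3% higher). The gains had a median log2 ratio of 0.70, the highest of the lists with more than 10 gains, and besides *Gata4* and *Vdr* included *Foxa2*, *Ppard* (0.85), *Ppara* (0.82) and *Nr5a2* (0.87). *Ppard* also had 4 losses (-0.66 to -0.43), and *Ppara* (-0.53) and *Nr5a2* (-1.02) had 1 each. In the exon of *Foxa2*, a forkhead factor of endoderm, B6 had 0.59, 1.01 and 0.67 rpm and adenoma 1.37, 1.06, 1.37, 1.15 and 1.41 rpm (0.71). Among the losses, 22 of 27 met the criteria. The largest was at *Ehf*, an Ets factor of epithelial cells, with 0.37, 0.45 and 0.50 rpm in B6 and 0.18, 0.12, 0.07, 0.22 and 0.05 rpm in adenoma (-1.46). *Foxa3* (-1.12), the goblet cell factor *Spdef* (-0.99), *Elf3* (-0.93) and *Klf5* (-0.73) were also lower in adenoma.

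Homeobox genes, which pattern the body axis and organs, had more gains than losses, 45 of 83 regions (54.2% higher against 36.7% of all). The criteria were met by 28 of the 45 gains and 26 of the 38 losses, and the gains summed to 20.77 to 26.86 rpm in B6 and to 34.82 to 37.85 rpm in adenoma. After *Onecut3*, the largest was at *Hhex*, a factor of foregut and liver development (chr19:37511001-37512000, coding exon, 1.64). B6 had 0.11, 0.14 and 0.10 rpm and adenoma 0.36, 0.45, 0.38, 0.72 and 0.43 rpm, with Ad6 above the other 4. *Msx1* (1.44), *Meis2* (1.20), *Pdx1*, the factor of pancreas and duodenum (1.02), *Irx2* (0.95) and *Irx4* (0.87) were also higher. *Irx2* had 0.97, 1.16 and 0.97 rpm in B6 and 1.98, 2.01, 1.71, 2.16 and 2.35 rpm in adenoma over 106 CpG sites. The largest loss of the family that met the criteria was in an intron of *Zfhx3* (-1.40). The other families of developmental regulators, such as T-box, forkhead and Runt genes, had 38 gains and 54 losses (41.3% higher), with *Tbx4* (1.13) among the gains and *Runx1* (-1.47) and *Prdm2* (-1.44) among the losses.

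Genes often silenced in colorectal tumours had 46 losses and 16 gains (25.8% higher), and 35 of the losses and 14 of the gains met the criteria. An intron of *Rassf5*, a Ras effector gene, had 0.18, 0.12 and 0.22 rpm in B6 and 0.31, 0.37, 0.40, 0.29 and 0.34 rpm in adenoma (0.81), and the only promoter among the gains was that of *Runx3* (0.47), whose intron had a larger change in the other direction (-0.54). Losses were largest at *Socs3* and at *Sept9*, a septin of the cytoskeleton (-1.40), with 0.26, 0.42 and 0.69 rpm in B6 and 0.13, 0.13, 0.17, 0.16 and 0.12 rpm in adenoma. Outside this list, the matrix protease gene *Mmp14* had 1.16, 1.48 and 1.23 rpm in B6 and 0.65, 0.53, 0.54, 0.67 and 0.61 rpm in adenoma (-1.04). *Crabp1*, which encodes a retinoic acid binding protein, had no listed region.

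Enterocyte genes, which serve absorption, had 13 gains and 13 losses (50% higher against 36.7% of all listed regions). The largest gain of all promoters named here was at *Slc9a3*, the sodium-proton exchanger of the brush border (chr13:74258501-74259500, 54 CpG sites). B6 had 0.02, 0.04 and 0.03 rpm and adenoma 0.28, 0.44, 0.52, 0.18 and 0.43 rpm, a log2 ratio of 2.39, with Ad6 the lowest tumour. *Slc5a1*, the sodium-glucose cotransporter, was lower in an intron, with 0.47, 0.30 and 0.32 rpm in B6 and 0.15, 0.21, 0.06, 0.12 and 0.06 rpm in adenoma (-1.28). The wider family of solute carriers had 52 gains and 112 losses (31.7% higher). The largest losses in it that met the criteria were at the zinc transporter gene *Slc39a11* (-1.37) and the mitochondrial iron carrier gene *Slc25a28* (-1.33), which had 1.15, 1.29 and 1.33 rpm in B6 and 0.65, 0.29, 0.44, 0.40 and 0.57 rpm in adenoma. Cell adhesion and guidance genes were near the split of all regions. Cadherins and protocadherins had 27 gains and 36 losses, and semaphorins, ephrins, netrins and slits 33 and 42, the latter with the loss at *Efna3* (-1.85) and the gain at *Sema6c* (1.04).

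Genes of the methylation and Polycomb machinery had 9 gains and 9 losses (50% higher against 36.7% of all listed regions), and 2 of the gains and 7 of the losses met the criteria. *Phc2*, a subunit of Polycomb complex 1, was lower (-1.36), with 0.53, 0.69 and 0.95 rpm in B6 and 0.30, 0.20, 0.27, 0.38 and 0.11 rpm in adenoma. *Ezh1*, a histone methyltransferase, had a loss in an intron (-1.30) and a gain in a coding exon (0.67), and *Dnmt3a*, a de novo DNA methyltransferase, had a small gain in an intron (0.49). Notch and hedgehog genes had 8 gains and 12 losses, with the receptor genes *Notch1* (-0.996) and *Notch3* (-0.95) the largest losses that met the criteria.

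Markers of the cell types that whole ileum holds were counted in the same way. The lymphocyte list had the highest share of gains of all lists, 14 of 18 regions (77.8% higher). Of its 51 annotated genes, 11 had only gains, 4 had only losses and 36 had no listed region. Among all 22380 annotated protein-coding genes, 2483 had a gain, 3188 a loss and 876 both, so most had no listed region. The criteria were met by 7 of the 14 gains, against 63.8% over the list of all gains, and by 0 of the 4 losses. The gains summed to 4.31 to 5.55 rpm in B6 and to 6.99 to 8.25 rpm in adenoma. The promoters of 4 of the genes were among them, those of *Cd22*, a B cell coreceptor (0.65), *Lat*, an adaptor of the T cell receptor (0.51), *Cd8b1*, a chain of the CD8 coreceptor (0.51), and *Cd27*, a costimulatory receptor (0.38). The largest gain lay in an exon of *Cd27* that is also the promoter of *Tapbpl*, with 0.15, 0.26 and 0.26 rpm in B6 and 0.57, 0.39, 0.53, 0.40 and 0.36 rpm in adenoma (0.87). *Bcl11b*, a T cell transcription factor, had 2 gains (0.69 and 0.46), and that of 0.46 had 1.23, 1.38 and 1.22 rpm in B6 and 1.53, 1.79, 2.07, 1.48 and 2.02 rpm in adenoma. The part of cell composition in these differences was not tested.

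**Figure D5:**
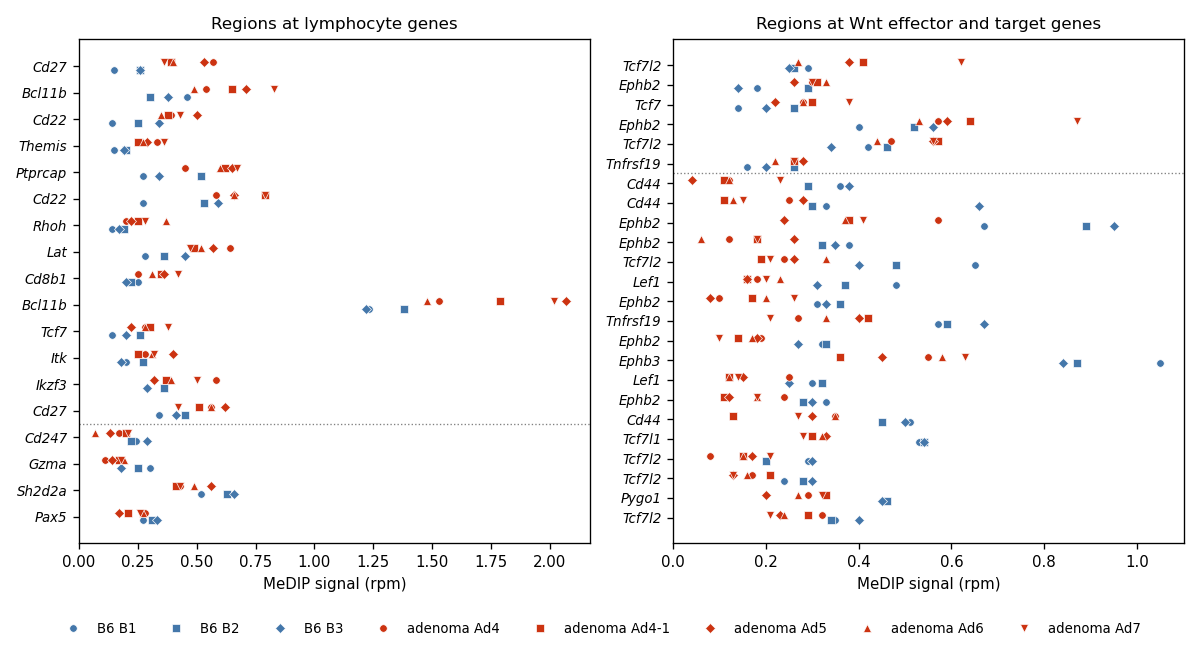
MeDIP signal in rpm (x axis) at each listed region of the lymphocyte genes (left) and of the Wnt effectors and targets (right), with 1 row per region. Points are samples, blue for B6 and red for adenoma, and the dotted line divides gains (above) from losses (below), 14 and 4 regions on the left and 6 and 18 on the right.

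None of the 13 annotated Paneth cell genes and none of the 22 enteroendocrine genes had a listed region, and the myeloid list of 30 genes had 1, a loss at *Mpo* (-0.85). Most annotated genes had none either, since 2483 of 22380 protein-coding genes held a gain, 3188 a loss and 876 both. Goblet genes had 2 gains and 5 losses, tuft genes 4 and 8, endothelial genes 5 and 11, and smooth muscle and fibroblast genes 6 and 7. Enteric neuron and glia genes had 13 gains and 10 losses (56.5% higher). Intestinal stem cell genes had 14 gains and 27 losses (34.1% higher), with 24 of the losses meeting the criteria. Of these losses 11 lay at *Msi2*, and 9 of the 11 met the criteria. The regions at *Cd44*, *Ephb2* and *Tnfrsf19* were also counted with the Wnt effectors and targets, and that at *Rnf43* with the Wnt inhibitors. The largest gain of the stem cell genes that met the criteria, at the RNA-binding protein gene *Msi1* (chr5:115886001-115887000, 1.69), lay in the promoter of the neighbouring gene *4930430O22Rik* and had 0.05, 0.11 and 0.06 rpm in B6 and 0.17, 0.43, 0.27, 0.58 and 0.29 rpm in adenoma. At the promoter of *Tek*, the angiopoietin receptor of endothelium, B6 had 0.21, 0.19 and 0.24 rpm and adenoma 0.46, 0.42, 0.50, 0.48 and 0.56 rpm (1.02).

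At a part of the list 1 adenoma lay within the B6 range and the other 4 did not, which can rest on 1 B6 sample as well as on the adenoma. In 353 hypermethylated regions Ad6 alone lay within the range of the B6 samples while the other 4 adenomas were above it, and the same was true of Ad4 in 309, Ad4-1 in 271, Ad5 in 233 and Ad7 in 195. For hypomethylated regions the counts were 528 for Ad6, 383 for Ad4, 378 for Ad5, 353 for Ad7 and 291 for Ad4-1. Ad6 was thus the adenoma that most often lay within the B6 range in both directions, and the 2 *Gata4* regions had the largest log2 ratios of the other 4 adenomas over B6 in this set (3.24 and 2.77). Behind them came losses in which 1 tumour lay within the B6 range, at an intron of *Pmepa1* (Ad7, -1.67), *Cmtm8*, a chemokine-like membrane protein gene (Ad4-1, -1.66), and *Nos1ap*, an adaptor of nitric oxide synthase (Ad4, -1.60). In these the overlap was with the lowest B6 sample only. At *Pmepa1* Ad7 had 0.25 rpm and B1 0.22 rpm, while Ad4-1 tied with B2 at *Cmtm8* (0.12 rpm) and Ad4 with B2 at *Nos1ap* (0.21 rpm). A gain at *Kdm2b*, a histone demethylase gene, was 0.54, 0.54, 0.63 and 0.33 rpm in the other 4 and 0.26 rpm in Ad7, against 0.12, 0.27 and 0.06 rpm in B6. Ad7 overlapped with B2 alone there. The tumours of the same mouse, Ad4 and Ad4-1, also share MeDIP number 4. They were slightly more alike than other pairs at the hypermethylated regions, and at the hypomethylated regions they lay within the range of other pairs. The deviations of Ad4 and Ad4-1 from the adenoma mean had a Pearson's r of -0.17 over the 5135 hypermethylated and -0.24 over the 8845 hypomethylated regions, against -0.30 to -0.21 and -0.31 to -0.19 for pairs from different mice. These are correlations across regions, which are not independent, and deviations from a shared mean are negatively related by construction.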

How the data were processed

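MeDIP-seq libraries of 5 adenomas and of the ileum of 3 B6 mice were compared, with input DNA for Ad7 and B3. The authors aligned reads of 36 nt to mm9 with Bowtie 0.12.5, discarded reads with several hits and duplicates, and extended the rest to 300 nt. Coverage in bins of 50 bp (MEDIPS) was scaled by the uniquely aligned reads of the library (rpm) and averaged in sliding 500 bp windows (step 250 bp). These rpm values were deposited by the authors with 2 decimals, for windows that had passed their criteria (rank test p under 0.01, ratio past 4/3 or 3/4, mean above 0.25 rpm) on 5 adenomas and 6 normal samples, and for regions merged from overlapping windows. The remaining genome was not analysed here. The deposited columns of the authors' own comparison (means, ratios, p-values) and 4 columns of samples outside the comparison were not used. The file with gene-level values was not used here. Library depth was taken from the study's list of libraries.

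Group means of rpm were computed for the 13980 merged regions. Log2 values were taken after adding 0.05 rpm. limma 3.58.1 (R 4.3.3) was fitted to all regions with group as the only term, with a trend in the prior variance and Benjamini-Hochberg adjustment over all regions, and was tested on simulated data. The 5 adenomas entered as separate samples although 2 share a mouse. Regions were assigned to 22380 protein-coding genes of gencode vM1 on NCBIM37, the build of mm9, and gene models longer than 2400 kb were left out of the 26 gene lists, a choice made after the annotation was seen. A gene can be on several lists, so their counts are not separate. Sequences were read from the same build. Without strand or allele information a region that touches 2 genes is given with both names.

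Named regions were, per direction, the 10 with the largest log2 ratio among those that met the criteria, had at least 0.5 rpm in the higher group and touched a named protein-coding gene, the 2 largest of each list, and the largest at each gene of a set that the study names. Further regions of the lists were named after their values had been seen. The members, lists and tests were chosen with earlier results of these data known. Alternatives tried were the added rpm, filters, ratio, scaling, windows, MeDIP number, adjustment, and leaving out samples. Some named regions are not reported here.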

Additional observations from a re-analysis of the deposited data

Results flagged for a closer look

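In each of the 103 named regions, and in the signal of each list, the highest and lowest of the 5 adenomas were compared with the rest of their group. A sample was flagged where its gap to the nearest other adenoma exceeded 0.71 of the whole range of the group, which chance gives in about 1 of 20 groups. Flagged samples were kept in all results. Of 105 groups, 6 met this, against 5.25 by chance. The *Gata4* exon had Ad6 at 0.21 rpm, far below the other 4 adenomas at 2.40 to 2.80 rpm. In *Hhex* Ad6 was highest with 0.72 rpm, and in *Pmepa1* (chr2:173079001-173080250) Ad4 was highest with 0.29 rpm while the other 4 were equal at 0.18 rpm. Ad5 was highest in *Wnt10a*, a Wnt ligand gene, with 0.43 rpm and in *Mylk*, a smooth muscle kinase gene, with 0.48 rpm. In *Cdh5*, the cadherin of endothelium, Ad4-1 was lowest with 0.05 rpm.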

How the results depend on the processing

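Of 102 recomputed results of the whole lists, 83 stayed within the spread of samples or within 1.5 times the count. Of 1339 recomputed log2 ratios of named regions, 188 moved by more than the spread. No median or log2 ratio changed sign, which is no separate finding, since the regions were listed by direction with these samples. The results that are counts could not change sign. Regions meeting the criteria (3277 hypermethylated and 6289 hypomethylated) were 954 and 2305 with a mean above 0.5 rpm, 487 and 1622 with a ratio past 2, and 4979 and 2517 when each sample was scaled to the same sum. Limma calls were 1422 and 2846 with a mean above 0.5 rpm, where fewer regions were tested, 2335 and 4863 at an adjusted p under 0.01, and 5131 and 4300 after scaling. The median log2 ratio was 0.61 and -0.73 with 0.01 rpm added, 0.26 and -0.29 with 0.5 rpm added, and 0.74 and -0.45 after scaling. It was 0.49 for the hypermethylated regions with a mean above 0.5 rpm and 0.49 between Ad6 and B3. Apart from the settings whose construction shows the cause, the cause was not tested. Leaving out 1 sample at a time gave 3260 to 3749 and 6434 to 6899 regions meeting the criteria, 3249 to 4277 and 6105 to 7830 limma calls, and medians of 0.52 to 0.56 and -0.66 to -0.62. With the MeDIP number as a term limma called 3657 and 6919. Keeping the long gene models, an alternative chosen after seeing the data, gave receptor kinase and MAPK genes 20 gains and 43 losses in place of 10 and 25. The scaled counts of regions past a log2 ratio of 1 were also added after seeing the data. No paired analysis was possible because the B6 samples and the adenomas share no replicate number and no animal. The counting error of 23.7% to 29.4% per sample at 0.5 rpm limits what single samples show, and the list holds only regions that had already passed a test on these samples.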
